A study of Solanum lycopersicum with 30 samples.

Results

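The response of wild type tomato (Solanum lycopersicum) roots to a high dose of ammonium was taken from 10 of the 30 arrays of the series, the 5 labelled as wild type with high nitrogen and the 5 labelled as wild type controls. Plants 8 weeks old were set out in field soil and grown there for 5 weeks. A patch of that soil then received either water alone (the water group) or ammonium labelled as 100 µM (the high N group), and the roots inside the patch were cut out 24 h later. A further group of 5 wild type arrays came from patches with ammonium labelled as 10 µM (the low N group). The plants of these 3 groups are described only as wild type, with no transgene and no other treatment, and the labels call the 5 samples of a group biological replicates without saying whether each was 1 plant. The other 15 arrays belong to rmc, a mutant with reduced mycorrhizal colonization, in the same layout but with its doses labelled as 6.5 and 65 ppm. Each array started from 200 ng of total RNA, and its values are log2 MAS5 signals that were scaled to one mean, so that a shift shared by all transcripts cannot be seen in them.

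Ammonium enters root cells through transporters of the AMT family and is built into glutamine by glutamine synthetase, with glutamate dehydrogenase as a side route between ammonium and glutamate. The carbon skeletons and the energy for this come from sugar breakdown and mitochondrial respiration. A patch rich in ammonium is a local signal in the soil, and roots are known to take up more nitrogen and to branch within such patches.

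Of 10038 probe sets left after array controls were set aside, 7528 passed a filter on low signal and were tested, and 690 of these (641 genes) carry a gene name in the platform annotation. Array to array correlations across probe sets averaged between 0.963 and 0.970 for a water array with the rest of its group and between 0.942 and 0.956 for a high N array. High N replicate 3 correlated better with the water arrays (mean 0.961) than with the other high N arrays (mean 0.947). High N replicate 5 and water replicate 3 were the arrays least like the opposite group (means 0.907 and 0.918), and the effect of leaving out this pair is given with the calls. Within their own groups these arrays (means 0.943 and 0.963) were not set apart, since high N replicate 1 (0.942) and water replicate 4 (0.963) were no higher. The pair was chosen after the data were seen, for its distance from the opposite group. A lower count of calls without it follows in part from that choice. Of the root marker probe sets 5 of 6 exceeded, on each of the 10 arrays, the level that 95% of negative control probe sets stay under, the exception being FRO1, a gene for iron reduction at the root surface. Of 8 shoot probe sets 4 did so, and PSBR alone was bright enough to be tested. Differences were fitted with limma over all 30 arrays, and a probe set is called where the Benjamini-Hochberg adjusted p over all 7528 is under 0.05; limma is the source of every adjusted p for a gene or probe set below.

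High N changed 1374 probe sets (18.3% of those tested) against water. Of these 652 rose (8.66%) and 722 fell (9.59%), and most changes were small. The median size of the called log2 differences was 0.42 for rises and 0.48 for falls, and 32 rises and 30 falls reached 2-fold. All 5 high N arrays lay on the called side of the water mean for 640 of the rises and 702 of the falls. The ranges of both groups were fully separate for 1329 probe sets (17.7%), with 695 higher (9.23%) and 634 lower (8.42%) in high N. Among named probe sets 47 rose (6.81% of 690) and 66 fell (9.57%).

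**Figure D1:**
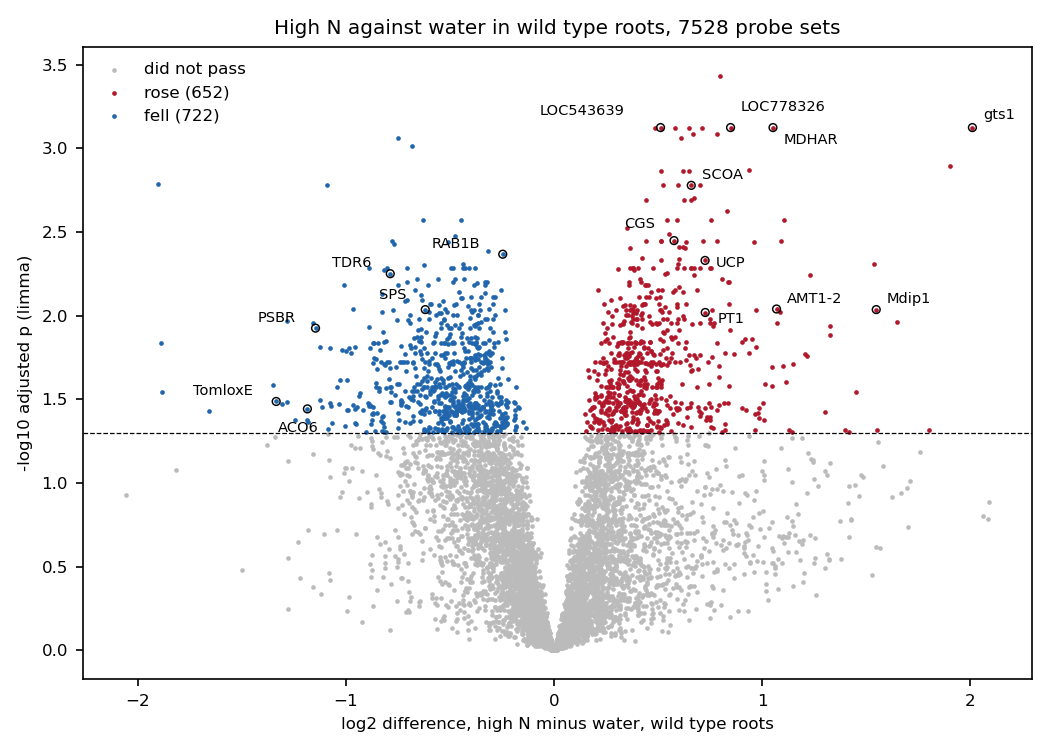
Each point is 1 of the 7528 probe sets tested, with the log2 difference of high N minus water in wild type roots on the horizontal axis and −log10 of limma's adjusted p on the vertical axis; the dashed line marks 0.05. The glutamine synthetase gene gts1 is farthest to the right of the 652 called rises (red) at 2.01, and the 722 called falls (blue) reach −1.90.

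The size of this count rested on single arrays. It was 467 without high N replicate 5 and 500 without water replicate 3, 736 without high N replicate 4, 793 without water replicate 5 and 902 without high N replicate 2, and 1681 without high N replicate 3. With water replicate 3 and high N replicate 5 both left out it was 72 (54 rises and 18 falls), of which 71 were also called with all arrays. A core of 393 probe sets (230 rises and 163 falls, 5.22% of those tested) was called in each of the 10 fits that left out 1 array, and 35 of the 113 called named probe sets were in it. Scaling to the poly-A spikes, control RNAs added before amplification, left 9 calls (8 rises and 1 fall) and moved the median of all log2 differences from −0.02 to 0.32. The spikes differed by −0.338 between high N and water, and the scaling subtracts this same value from the difference of every probe set. No rise could therefore change sign, and every fall smaller in size than this did, 143 of the 722 (19.8%). These sign changes do not show that rises are firmer than falls.

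Named genes were as sensitive. Of the 113 called named probe sets 11 were called without the pair of arrays, and the other 102 had adjusted p from 0.0523 to 0.273 there, all with the same sign. With poly-A scaling 5 were called, for gts1 (both probe sets), MDHAR, LOC778326 and Mdip1. The other 108 had adjusted p from 0.0874 to 0.993 with that scaling, and 11 of the 66 named falls stood above 0. A named gene described below as changed was therefore called without the pair, or with poly-A scaling, only where that is said. The counts of each list are to be read beside the 8.66% of all tested probe sets that rose and the 9.59% that fell. The lists and their members were chosen with earlier results of these data known, so a share above these percentages is a description and not a test.

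**Figure D2:**
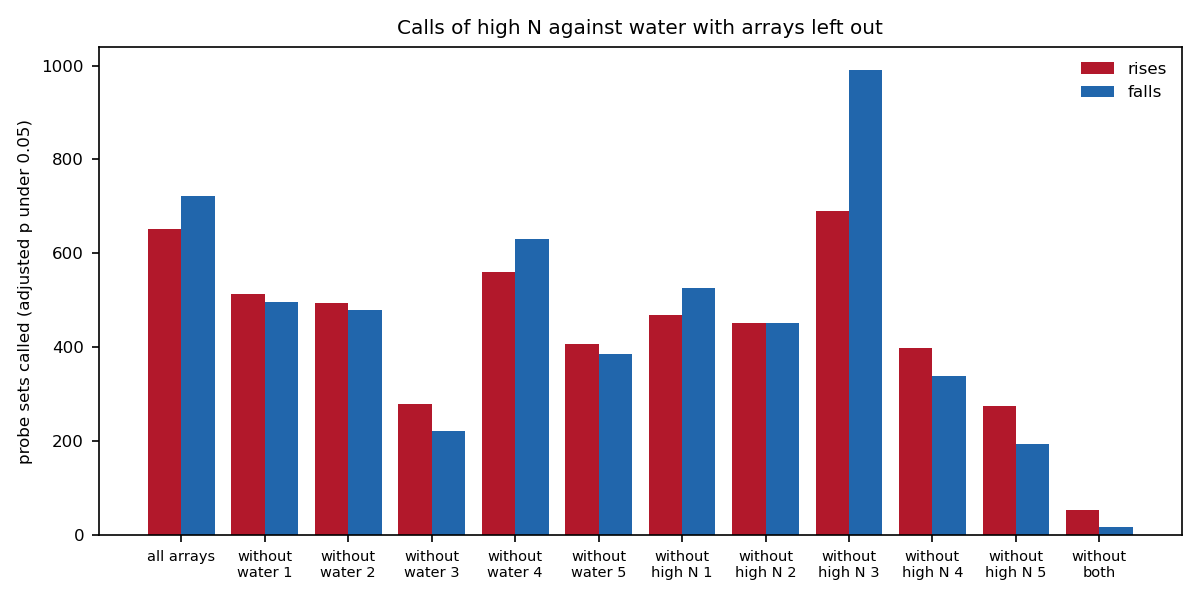
Bars give the number of probe sets called as rises (red) and falls (blue) for high N against water with all arrays, without each of the 10 arrays in turn, and without both water replicate 3 and high N replicate 5 (last pair of bars). The counts run from 691 rises and 990 falls without high N replicate 3 down to 54 and 18 without both arrays.

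Control probe sets differed between the groups as well. The poly-A spikes averaged 8.583 ± 0.121 (log2 signal, SD, n = 5) in water and 8.245 ± 0.195 in high N, and their ranges overlapped (two-sided exact permutation p = 0.0159, adjusted over 5 measures p = 0.0397). The signal of the 3′ GAPDH probe set minus that of the 5′ one was 0.206 ± 0.114 in water and −0.118 ± 0.067 in high N, with every high N array below every water array (exact permutation p = 0.00794, the smallest that 5 against 5 allows, adjusted p = 0.0397). For actin that difference was 0.176 ± 0.032 and 0.085 ± 0.077 (exact permutation p = 0.0238, adjusted p = 0.0397). The spikes added at hybridisation read 9.918 ± 0.083 and 9.904 ± 0.097 (exact permutation p = 0.817), and 2.457% ± 0.264 and 2.556% ± 0.161 of probe sets sat at the lowest value of their array (exact permutation p = 0.524). The part of these control differences in the calls was not tested.

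The called rise with the largest log2 difference was that of gts1, a gene of nitrogen assimilation. Of 5 probe sets for 4 genes of nitrogen uptake and assimilation, 3 rose (60.0%), for 2 genes, and none fell. The median log2 difference was 1.23 beside −0.02 over all tested probe sets, and is the value of GS2, which did not pass. The glutamine synthetase gene gts1 has 2 probe sets. The brighter one read 9.75, 9.62, 9.66, 9.10 and 9.64 in water replicates 1 to 5 and 11.84, 11.74, 11.79, 11.13 and 11.32 in high N. Every high N array lay more than 1 log2 unit above every water array, and replicate 4 was the lowest array of both groups. The difference of 2.01 (SE 0.32, adjusted p = 0.000751) is a 4.03-fold rise. The dimmer probe set read 5.73 to 6.50 in water and 7.43 to 8.68 in high N, a rise of 1.90 (SE 0.32, adjusted p = 0.00128). Both stayed called without water replicate 3 and high N replicate 5 (adjusted p = 0.00555 and 0.00506), with differences no smaller than with all arrays. They were also called with poly-A scaling (2.35, adjusted p = 0.00284, and 2.24, adjusted p = 0.0144).

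The ammonium transporter gene AMT1-2, which encodes a high-affinity ammonium transporter of the root, read 9.73, 9.71, 9.76, 9.44 and 9.05 in water and 10.75, 10.73, 10.59, 10.41 and 10.55 in high N. The groups did not overlap, and the spread was wider in water, where replicate 5 was lowest. It rose by 1.07 on the log2 scale (SE 0.25, adjusted p = 0.00911) and was called in all 10 fits without 1 array, but reached an adjusted p = 0.0523 without both arrays, with the difference at 1.14, and 0.0969 with poly-A scaling (1.41). GS2, the gene for the plastid form of glutamine synthetase, read 7.99, 7.85, 6.78, 7.39 and 7.15 in water and 9.86, 8.81, 8.05, 7.54 and 9.08 in high N. All 5 high N arrays were above the water mean, but replicate 4 lay inside the water range, and GS2 did not pass (1.23, SE 0.49, adjusted p = 0.0721). The glutamate dehydrogenase gene gdh1 read 11.29 to 11.58 in water and 11.62 to 11.85 in high N. These ranges did not overlap, yet the difference of 0.24 (SE 0.12) did not pass (adjusted p = 0.141). The spread in the test is estimated over all 6 groups. For gdh1 the SD was 0.11 in wild type water, 0.09 in wild type high N and 0.39 in rmc water.

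**Figure D3:**
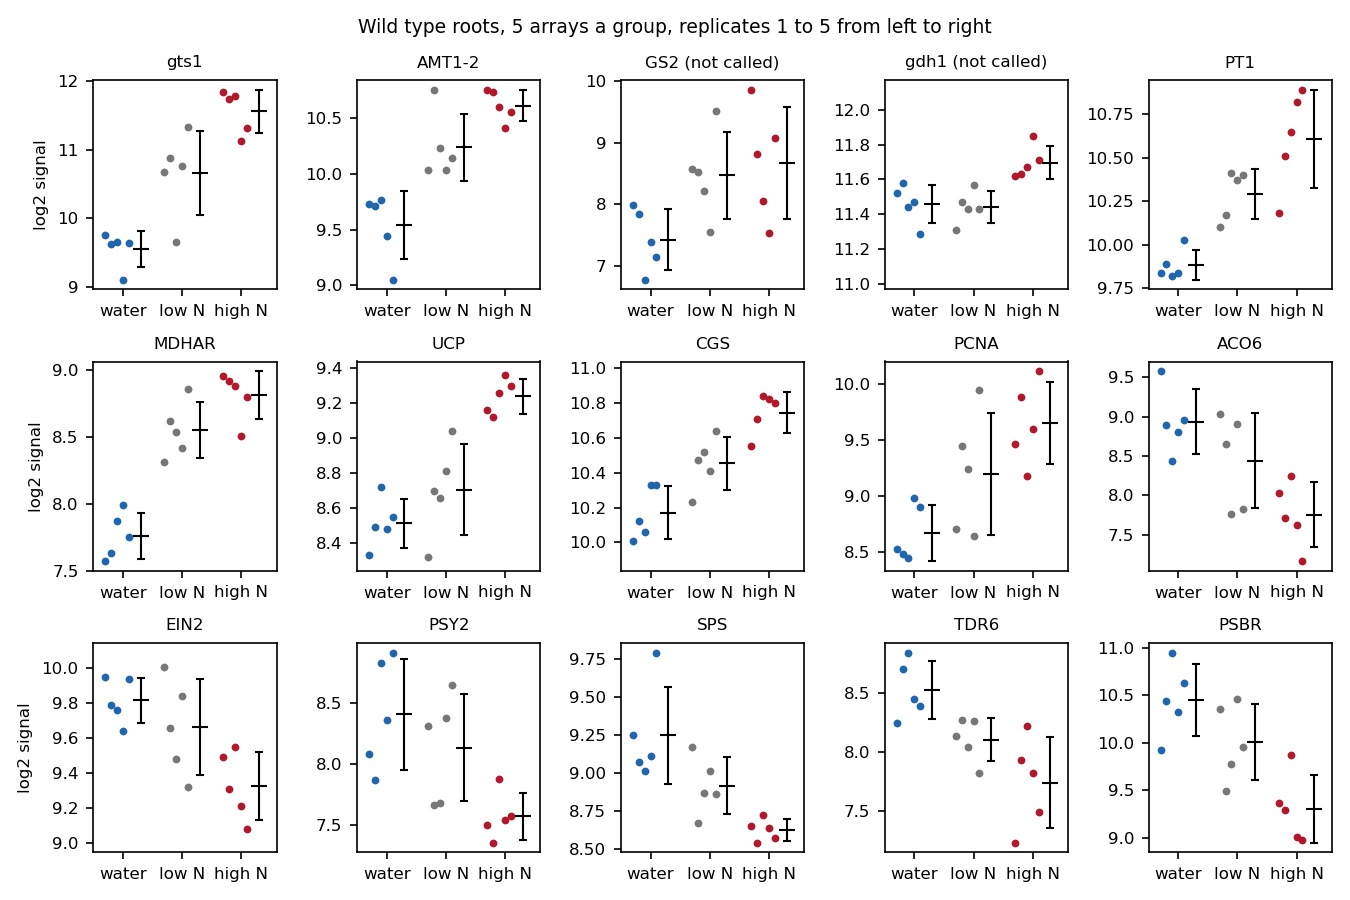
Log2 signal of 15 genes (brightest probe set) on each wild type array in water (blue), low N (grey) and high N (red), with the group mean and SD in black beside the 5 points of a group. In gts1, AMT1-2, gdh1 (not called), PT1, MDHAR, UCP, CGS and PCNA every high N point is above every water point. In ACO6, EIN2, SPS, TDR6 and PSBR every high N point is below every water point. The vertical scales differ between panels.

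Low N means, which are set against the same water arrays and are given side by side only, lay between the water and high N means for 3 of these 4 genes. For gts1 the low N mean was 10.66 ± 0.62 (SD, n = 5) between 9.55 ± 0.26 and 11.57 ± 0.32, and for AMT1-2 it was 10.24 ± 0.30 between 9.54 ± 0.30 and 10.61 ± 0.14. In GS2 it was 8.48 ± 0.71, close to the high N mean of 8.67 ± 0.90. In gdh1 it was 11.44 ± 0.10, at the water mean of 11.46 ± 0.11. High N was also compared with low N directly, a comparison without the water arrays. No probe set was called (0 of 7528, 0.0%), by limma and under every alternative run, while 672 (8.93%) had an unadjusted p under 0.05. The difference of high N from low N was 0.91 for gts1 (adjusted p = 0.537) and 0.37 for AMT1-2 (adjusted p = 0.606), and these did not pass. Against the same water arrays, 2 probe sets (0.0266%) were called for low N.

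Of the genes that turn nitrogen and sulphur into amino acids, urea and polyamines, 1 of 22 probe sets rose (4.55%) and 2 fell (9.09%), with a median of 0.05. The riser was CGS, for cystathionine gamma-synthase, which commits sulphur and carbon to methionine. It read 10.01 to 10.33 in water and 10.55 to 10.84 in high N, without overlap, and rose by 0.58 (SE 0.11, adjusted p = 0.00356), also without both arrays (0.54, adjusted p = 0.0441) but not with poly-A scaling (0.91, adjusted p = 0.123). URED, named for a urease accessory protein, fell by 0.87 (SE 0.29, adjusted p = 0.0387). Its probe set is of the kind that can match several transcripts, the groups overlapped, and the call held in 2 of 10 fits without 1 array. OPT1, an oligopeptide transporter gene, fell by 0.37 (SE 0.11, adjusted p = 0.0231; 6 of 10 fits). The brightest members that did not pass were SAHH (0.07), CS1 (−0.06), the arginine decarboxylase gene ADC (0.15) and the amino acid permease gene AAP2 (0.21), with adjusted p between 0.462 and 0.759.

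Phosphate genes had 2 rises (25%) and no fall among 8 probe sets (median 0.39). PT1, a phosphate transporter gene of the root, read 9.84, 9.89, 9.82, 9.84 and 10.03 in water and 10.18, 10.51, 10.65, 10.82 and 10.89 in high N. The water arrays were tight and every high N array was above them. PT1 rose 1.65-fold (0.73, SE 0.17, adjusted p = 0.00956), was called in all fits without 1 array, and had an adjusted p = 0.0856 without both. APS1, an acid phosphatase gene, rose by 0.66 (SE 0.21, adjusted p = 0.0333) with overlapping groups and held in 4 of 10 fits. PT2, the related transporter gene, differed by 0.56 without passing (adjusted p = 0.281), as did TPSI1, a phosphate starvation transcript (−0.22, adjusted p = 0.49).

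Mitochondrial and respiratory genes had 3 of 10 probe sets up (30.0%), for 2 genes, and none down (median 0.19). UCP, for an uncoupling protein of the inner mitochondrial membrane, read 8.33, 8.49, 8.72, 8.48 and 8.55 in water and 9.16, 9.12, 9.26, 9.36 and 9.30 in high N. The high N arrays spanned less than 0.3 log2 units, all above the water arrays. UCP rose 1.65-fold (0.73, SE 0.15, adjusted p = 0.00467), also without both arrays (0.76, adjusted p = 0.0266) but not with poly-A scaling (1.06, adjusted p = 0.11). Both probe sets of mMDH1, for mitochondrial malate dehydrogenase, rose (0.48, adjusted p = 0.00515, and 0.41, adjusted p = 0.0333), and without the pair their adjusted p were 0.0645 and 0.198. The alternative oxidase gene AOX1a (−0.08, adjusted p = 0.832) and the formate dehydrogenase gene FDH (0.10, adjusted p = 0.763) did not pass. SCOA, named for a subunit of succinyl-CoA ligase of the citric acid cycle but in none of the lists, rose from 9.60 ± 0.14 to 10.26 ± 0.11 (0.66, SE 0.12, adjusted p = 0.00166), also without both arrays (0.59, adjusted p = 0.0266) but not with poly-A scaling (1.00, adjusted p = 0.11).

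Sugar, starch and glycolysis genes went both ways, with 4 of 26 probe sets up and 4 down (15.4% each, median 0.08). The rises were GPI1 (0.62, SE 0.15, adjusted p = 0.0104), the hexokinase gene hxk1 (0.45, adjusted p = 0.0407), the enolase gene PGH1 (0.36, adjusted p = 0.00654) and the sucrose synthase gene sus3 (0.16, adjusted p = 0.0433). LOC543961, whose RefSeq synonyms include SUS1 and which was in no list, read 8.83 to 9.72 in water and 9.69 to 10.56 in high N and rose by 0.86 (SE 0.23, adjusted p = 0.017; 8 of 10 fits without 1 array). Sucrose synthase and hexokinase act where imported sucrose and glucose enter metabolism. SPS, for sucrose-phosphate synthase on the side of sucrose synthesis, read 9.25, 9.07, 9.01, 9.11 and 9.79 in water and 8.65, 8.54, 8.72, 8.64 and 8.57 in high N. No array of high N reached the water range, and SPS fell by 0.62 (SE 0.15, adjusted p = 0.00919), also without both arrays (−0.66, adjusted p = 0.0496) but not with poly-A scaling (−0.28, adjusted p = 0.295). AGP-S2, a gene of ADP-glucose pyrophosphorylase in starch synthesis, fell by 0.34 (adjusted p = 0.0351). The SnRK1 kinase, which senses low energy, had its beta subunit gene GAL83 fall by 0.82 (adjusted p = 0.0494) and its catalytic subunit gene SNF1 by 0.37 (adjusted p = 0.0443). Both held in 2 of 10 fits without 1 array, and for SNF1 high N replicate 3 (9.03) was at the water mean. PGH1 and GPI1 were called in all 10 such fits, and hxk1, sus3 and AGP-S2 in 2 to 4.

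**Figure D4:**
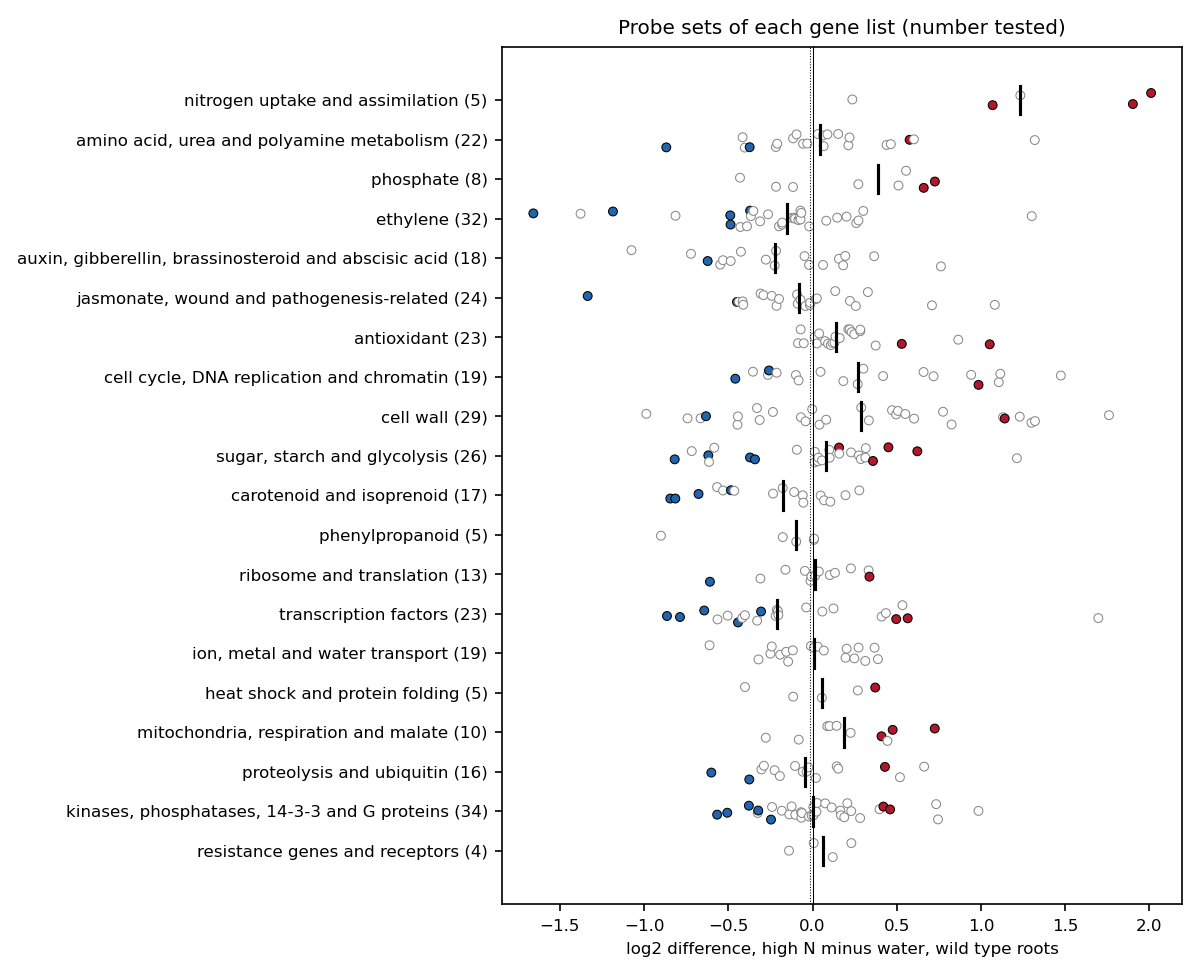
Log2 difference of high N minus water for every tested probe set of 20 gene lists, with rises called in red, falls called in blue and the rest open; vertical ticks are list medians and the dotted line is the median of all 7528 probe sets (−0.02). The nitrogen list lies to the right (median 1.23), and the ethylene, carotenoid and hormone lists hold called falls and no called rise.

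Antioxidant genes had 2 of 23 probe sets up (8.7%, near the 8.66% of all tested) and none down (median 0.14). MDHAR, for monodehydroascorbate reductase, which returns oxidised ascorbate to its reduced form, read 7.57, 7.63, 7.87, 7.99 and 7.75 in water and 8.96, 8.92, 8.88, 8.51 and 8.80 in high N. The gap between the groups was wider than either group. MDHAR rose 2.07-fold (1.05, SE 0.16, adjusted p = 0.000751), without both arrays as well (1.08, adjusted p = 0.00531) and with poly-A scaling (1.39, adjusted p = 0.0451). SODCP.2, a plastid superoxide dismutase gene, rose by 0.53 (SE 0.18, adjusted p = 0.0448) with overlapping groups, in 2 of 10 fits. The brightest others, cat1 (−0.07), SODCC.1 (0.04), GPXle-1 (0.09) and APX2 (0.16), had adjusted p between 0.152 and 0.647.

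Ethylene synthesis and signalling genes had 5 of 32 probe sets down (15.6%, beside 9.59% of all tested), for 4 genes, and none up (median −0.15). ACO6, for the ACC oxidase that makes ethylene, has 3 probe sets. The brightest read 9.58, 8.90, 8.43, 8.81 and 8.96 in water and 8.03, 7.71, 8.24, 7.62 and 7.16 in high N and fell by 1.18 (SE 0.39, adjusted p = 0.036). Another fell by 1.66 (adjusted p = 0.0371), and the dimmest differed by −1.38 without passing (adjusted p = 0.0591). In all of them the groups were separate, but the calls held in 3 and 1 of 10 fits without 1 array. EIN2, the central signal carrier behind the receptors, fell by 0.49 (adjusted p = 0.0495; 1 of 10 fits). The receptor gene ETR2 fell by 0.49 (adjusted p = 0.0342; 5 of 10 fits), and EIL1, a transcription factor gene at the end of the pathway, by 0.37 (adjusted p = 0.0153; 9 of 10 fits). For these 3 genes too no high N array reached the water range. TCTR2, a kinase gene related to CTR1 that is in no list, fell by 0.31 (adjusted p = 0.0283; 5 of 10 fits) and stood at 0.03 with poly-A scaling; it was picked after its value was seen. EIL2 (−0.18, adjusted p = 0.112), EIL3 (−0.43, adjusted p = 0.0956), SAM1 (−0.10, adjusted p = 0.236) and SAM3 (0.30, adjusted p = 0.0931) did not pass. Without both arrays 0 of the 32 were called and the median was −0.11.

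In the other hormone lists the falls were few. SPY, a repressor of gibberellin signalling, fell by 0.62 (SE 0.17, adjusted p = 0.0155) as the 1 call among 18 probe sets (5.56%) for auxin, gibberellin, brassinosteroid and abscisic acid (median −0.22), and held in 8 of 10 fits. RSI-1 (0.76), IAA27 (−0.55), ARF3 (−0.53 and −0.72) and TAO3 (−0.43) did not pass, with adjusted p between 0.0894 and 0.314. Of 24 jasmonate, wound and pathogenesis-related probe sets 2 fell (8.33%) and none rose (median −0.08). COI1, the jasmonate receptor gene, read 9.38 to 9.76 in water and 8.90 to 9.23 in high N and fell by 0.45 (SE 0.11, adjusted p = 0.0134), in all 10 fits without 1 array, with an adjusted p = 0.13 without the pair. TomloxE, a lipoxygenase gene, had the largest fall of a named gene by its brightest probe set (−1.33, SE 0.42, adjusted p = 0.0325), but ran from 4.01 to 6.78 in high N against 6.20 to 7.60 in water and held in 4 of 10 fits. The abundant defence transcripts LOX1.1 (−0.44), NP24-I (−0.20), GluB (−0.09) and TSI-1 (0.03) did not pass, with adjusted p between 0.498 and 0.871.

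Carotenoid and isoprenoid genes had 4 of 17 probe sets down (23.5%, beside 9.59% of all tested) and none up (median −0.18). PSY2, for phytoene synthase at the entry to carotenoids, read 8.08, 7.87, 8.83, 8.36 and 8.92 in water and 7.50, 7.35, 7.88, 7.54 and 7.57 in high N. High N replicate 3 and water replicate 2 met at about the same level, and the other arrays were apart. PSY2 fell by 0.84 (SE 0.22, adjusted p = 0.0145; 9 of 10 fits). The carotene hydroxylase gene CrtR-b1 fell by 0.81 (adjusted p = 0.0464; 2 of 10 fits), the zeaxanthin epoxidase gene ZEP by 0.68 (adjusted p = 0.0301; 4 of 10 fits) and the carotenoid cleavage gene CCD1B by 0.48 (adjusted p = 0.0272; 6 of 10 fits). The precursor genes DXR (−0.18), HDS (−0.11) and FPPS1 (0.28) and the desaturase gene ZDS (0.05) did not pass (adjusted p between 0.332 and 0.858). Without both arrays 0 of the 17 were called and the median was −0.11. PSBR, a photosystem gene that is also the only tested shoot marker, read 9.92, 10.44, 10.95, 10.32 and 10.63 in water and 9.37, 9.29, 9.87, 9.01 and 8.98 in high N. It fell by 1.15 (SE 0.29, adjusted p = 0.0119) in all 10 fits without 1 array, with an adjusted p = 0.112 without both. The other 7 shoot probe sets read at or under 6.41 on all 10 arrays and did not enter the test.

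Cell cycle and DNA replication genes had 1 of 19 probe sets up (5.26%) and 2 down (10.5%), with a median of 0.27. PCNA, for the sliding clamp of DNA replication, read 8.53, 8.48, 8.45, 8.98 and 8.90 in water and 9.47, 9.89, 9.18, 9.60 and 10.12 in high N. Although the groups were separate, the rise of 0.99 (SE 0.32, adjusted p = 0.0357) held in 3 of 10 fits. krp1, for an inhibitor of cyclin-dependent kinases, fell by 0.46 (adjusted p = 0.0188; 9 of 10 fits), and the kinase gene CDKC by 0.26 (adjusted p = 0.0333; 5 of 10 fits), a difference that is 0.08 with poly-A scaling. All 13 marker probe sets of dividing root tip cells read above the negative controls on every array, and 12 were tested. The mean level of those 12 ran from 7.90 to 8.47 on water arrays and from 8.21 to 9.03 on high N arrays. PCNA was the 1 called as a rise, and none was called as a fall. The 12 split in direction, with differences above 0 for 7 and below 0 for 5. In pieces of whole root, more cells of a type and more RNA per cell cannot be told apart. The part of this marker difference in the other results was not tested.

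Cell wall genes had 1 rise and 1 fall among 29 probe sets (3.45% each, median 0.29). cel7, an endoglucanase gene of wall loosening, read 8.48 to 9.02 in water and 9.13 to 10.79 in high N and rose by 1.14 (SE 0.40, adjusted p = 0.0494), in 2 of 10 fits. The expansin gene EXPA3 fell by 0.63 (SE 0.21, adjusted p = 0.0368; 3 of 10 fits). CEL8 (0.55), PMEU1 (0.83), Cel3 (−0.07) and the 3 probe sets of XTH16 (−0.33 to −0.45) did not pass, with adjusted p between 0.17 and 0.462.

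Among transcription factors 2 of 23 probe sets rose (8.7%, beside 8.66% of all tested) and 5 fell (21.7%, beside 9.59%), with a median of −0.21. The bZIP genes bZIP1 (0.57, SE 0.15, adjusted p = 0.0166; all 10 fits) and vsf-1 (0.50, SE 0.14, adjusted p = 0.0213; 7 of 10 fits) rose, and GBF12, named for a G-box binding factor, fell (−0.86, SE 0.24, adjusted p = 0.0178; 8 of 10 fits). TDR6, a MADS-box gene, read 8.24 to 8.84 in water and 7.23 to 8.22 in high N and fell by 0.79 (SE 0.17, adjusted p = 0.00561) in all 10 fits, with an adjusted p = 0.0697 without the pair. WRKY2 fell by 0.44 (adjusted p = 0.0127; all 10 fits), WRKYIId by 0.31 (adjusted p = 0.0363; 4 of 10 fits, and 0.03 with poly-A scaling) and MYB by 0.64 (adjusted p = 0.0376; 2 of 10 fits), where high N replicate 3 (9.18) lay above the water mean. LOC543856, a WRKY gene by its RefSeq synonyms, fell by 0.68 (adjusted p = 0.0423; 2 of 10 fits), with 4 of 5 high N arrays below the water mean.

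Signalling and protein turnover genes went both ways. Of 34 probe sets for kinases, phosphatases, 14-3-3 proteins and G proteins 2 rose, for tft8 (0.46, adjusted p = 0.0144; all 10 fits) and the phosphatase subunit gene PP2AC1 (0.42, adjusted p = 0.035; 4 of 10 fits), and 5 fell. These are 5.88% and 14.7% of the list, whose median was 0.01. Its 4 brightest uncalled members were tft10 (0.00), TFT9 (0.02), tft4 (−0.14) and TFT7 (0.17), with adjusted p between 0.0553 and 0.968. The falls were the phospholipase D gene PLDa3 (−0.57, adjusted p = 0.0099), the MAP kinase gene MAPK10 (−0.51, adjusted p = 0.0118, and 0.0781 without the pair) and the genes of small GTPases of membrane traffic Rab11a (−0.38), Rab1C (−0.32) and RAB1B (−0.25). RAB1B, at 10.88 to 11.03 in water and 10.67 to 10.77 in high N, and PLDa3 were also called without both arrays (−0.25 and −0.67, adjusted p = 0.0266 and 0.0276), but with poly-A scaling they stood at 0.09 and −0.23 (adjusted p = 0.762 and 0.551) and Rab1C at 0.02. Rab11a held in 6 of 10 fits without 1 array and Rab1C in 3. Of 16 proteolysis and ubiquitin probe sets the metacaspase gene MCA1 rose (0.43, adjusted p = 0.0232; 7 of 10 fits), which is 6.25% of the list, and 12.5% fell. COP1 (−0.60, adjusted p = 0.0464) and the cysteine protease gene CYP1 (−0.38, adjusted p = 0.0352) fell, each in 2 of 10 fits. CYP1 was also the 1 senescence marker called, of 3 tested.

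Ribosomal and translation genes had 1 rise, RPS25 (0.34, adjusted p = 0.0108, and 0.078 without the pair), and 1 fall, the translation factor gene eIF-5A1 (−0.61, adjusted p = 0.0244; 6 of 10 fits), among 13 probe sets (7.69% each, median 0.02). The other RPS25 probe set differed by 0.13 (adjusted p = 0.17), and the paralogs eIF-5A2, eIF-5A3 and eIF-5A4 by −0.01, 0.10 and −0.05 (adjusted p between 0.209 and 0.87). Of 5 heat shock and folding probe sets the chaperonin gene CPN21 rose (20%; 0.37, adjusted p = 0.0432), in 2 of 10 fits. HSP17.4 (−0.40), HSC80 (−0.11), Hsp90-1 (0.06) and HSP17-6 (0.27) did not pass, with adjusted p between 0.321 and 0.814. In the lists for ion, metal and water transport (19 probe sets), phenylpropanoids (5) and resistance genes (4), 0 probe sets were called.

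Further named genes among the largest changes belonged to no list. PAP1 rose by 1.55 (SE 0.54, adjusted p = 0.0479) and read 4.50 to 5.37 in water and 5.17 to 7.37 in high N, with a call that held in 1 of 10 fits. Mdip1 also rose by 1.55 (SE 0.36, adjusted p = 0.00919), with high N replicate 1 (6.69) inside the water range of 6.22 to 6.88 and the other high N arrays from 7.71 to 8.89. It was called in all 10 fits without 1 array and with poly-A scaling (1.89, adjusted p = 0.0376), and had an adjusted p = 0.0754 without the pair. LOC778326, which the tables name only by number, read 10.21 to 10.70 in water and 11.03 to 11.51 in high N and rose by 0.85 (SE 0.13, adjusted p = 0.000751), also without both arrays (0.94, adjusted p = 0.00506) and with poly-A scaling (1.19, adjusted p = 0.0451). The falls included CIP1, named as a COP1-interacting protein, by both its probe sets (−0.69, adjusted p = 0.0315, and −0.85, adjusted p = 0.0266; 5 and 7 of 10 fits), the blue light receptor gene CRY1A (−0.66, adjusted p = 0.0134, and −0.47, adjusted p = 0.191, for its dimmer probe set), CIF1 (−0.65, adjusted p = 0.0121) and LOC543892 (−0.68, adjusted p = 0.0281; 5 of 10 fits). CRY1A and CIF1 were called in all 10 fits without 1 array, with adjusted p = 0.106 and 0.129 without the pair. Of the 38 genes with more than 1 tested probe set, 9 had a call, 4 of them in every probe set, and in none did the probe sets of a called gene differ in sign.

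Most probe sets carry no gene name. The largest rises among those were LesAffx.57363.1.S1_at (1.80, SE 0.63, adjusted p = 0.0479), which lay at 4.59 to 5.51 in water and 5.85 to 7.95 in high N and held in 1 of 10 fits without 1 array, and LesAffx.62398.1.S1_at (1.65, SE 0.40, adjusted p = 0.0109), at 6.73 to 8.38 and 8.66 to 9.93. The largest falls were Les.3217.1.S1_s_at (−1.90, SE 0.33, adjusted p = 0.00163) and Les.5147.1.S1_at (−1.89, SE 0.49, adjusted p = 0.0145), and these 3 held in all 10. For the last, high N replicates 1 and 3 read 4.30 and 4.27 and replicate 2 read 8.03, inside the water range of 7.57 to 8.43. The group mean of 6.08 lay in a gap between the arrays.

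The rmc arrays hold a further comparison of high N with water. Its group means share no array with those of the wild type, although the labelled dose differs. The spread in the test was estimated over all groups together, so a probe set had the same SE in both genotypes. Calls shared by the genotypes are therefore not independent of each other. The control probe sets were not compared between high N and water in rmc. High N called 327 probe sets there (4.34%; 247 rises, 3.28%, and 80 falls, 1.06%). Of the 652 wild type rises 643 (98.6%) were above 0 in rmc, with a median of 0.32 against 0.42 in the wild type, and 197 were called up and 0 down. Of the 722 falls 713 (98.8%) were below 0 in rmc, with a median of −0.30 against −0.48, and 54 were called down and 0 up. Over all tested probe sets 48.7% were above 0 in rmc. The 251 calls shared in direction were 18.3% of the wild type calls and 76.8% of the rmc calls. In rmc the differences were 2.81 for gts1, 1.35 for AMT1-2, 0.92 for PT1, 0.85 for MDHAR and 0.81 for UCP, all called (adjusted p between 7.33e-06 and 0.00346). The gene gdh1, not called in the wild type, was called in rmc as well (0.74, adjusted p = 0.00123). That of SPS was −0.22 (adjusted p = 0.362), of ACO6 −0.73 (adjusted p = 0.256), of PCNA 0.25 (adjusted p = 0.676) and of vsf-1 −0.14 (adjusted p = 0.576).

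The difference between the responses of the genotypes was tested as an interaction. It was called for 1 of 7528 probe sets (0.0133%), and 96 (1.28%) had an unadjusted p under 0.05. The called probe set, Les.4317.1.S1_at, has no gene name. It read 11.26, 10.93, 9.96, 10.66 and 10.91 in wild type water and 11.71, 11.74, 11.64, 12.14 and 11.74 in wild type high N, a rise of 1.05 (SE 0.30, adjusted p = 0.0204). In rmc it rose from 8.16 ± 0.33 to 11.83 ± 0.34 (SD, n = 5), by 3.67. Both genotypes ended at the same level and differed in water, and the response of the wild type was smaller by 2.63 (SE 0.42, adjusted p = 0.00918), and 1 probe set was called in each of the 20 fits without 1 array. For SPS, ACO6, PCNA and vsf-1 the interaction did not pass (adjusted p of 0.999 each), so a response in the wild type alone was not shown for them. Nor did it pass for gdh1 (adjusted p = 0.999), so a response in rmc alone was not shown for that gene.

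**Figure D5:**
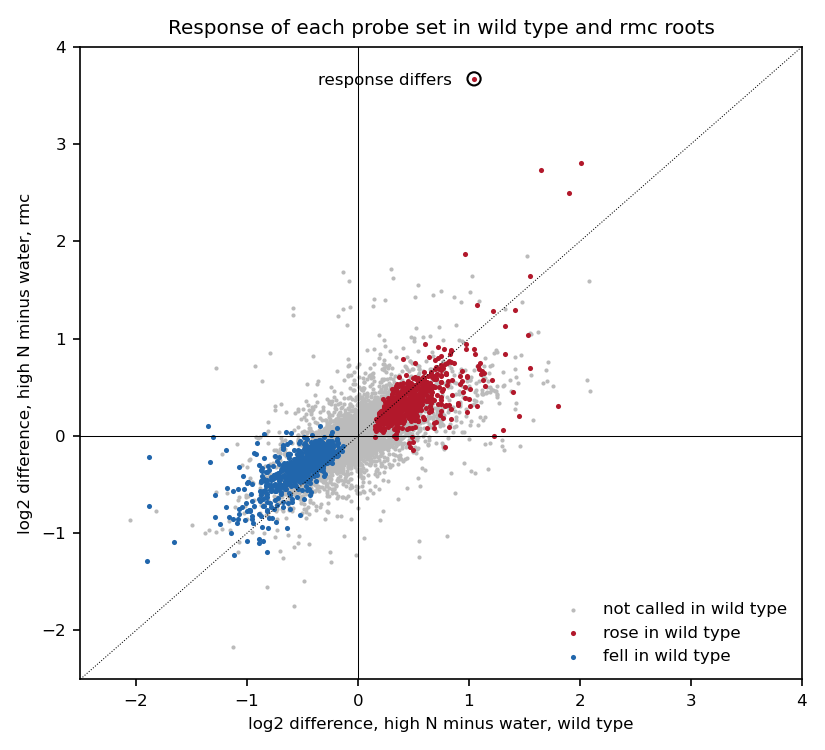
Each point is a probe set, with the log2 difference of high N minus water in the wild type on the horizontal axis and in rmc on the vertical axis; wild type rises are red, wild type falls blue and the dotted line marks equal responses. Of the 652 rises 643 lie above 0 in rmc and of the 722 falls 713 lie below 0, and the circled probe set, at 1.05 and 3.67, is the 1 whose response was called different.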

How the data were processed

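The deposited values are log2 MAS5 signals, 1 table per array. The submitters' processing notes list Affymetrix Expression Console as well as MAS5, with no version. The log2 values deposited by the authors fit 1 scale, since the 2% trimmed mean of every array is 500 on the linear scale. Of 10209 probe sets, 108 AFFX and 63 RPTR controls were set aside and the lowest 25% by mean over all arrays (under 5.612) were dropped. limma 3.58.1 in R 4.3.3 fitted 6 group means over 30 arrays (24 residual degrees of freedom, trended variance), with Benjamini-Hochberg adjustment over 7528 probe sets. On simulated data with 200 changed probe sets among 7528, the high N against water test recovered 87% of those changed by 1 log2 unit and 97% by 2, with 8 false among 192 calls. The simulated noise was drawn separately for each probe set and array and held no shift shared by a whole array. These rates therefore need not hold for the real arrays. No change under 1 log2 unit was simulated, while the median size of the real calls was 0.42 for rises and 0.48 for falls. Array measures were tested by two-sided exact permutation (SciPy 1.17.1), adjusted over 5. The number of arrays limits the precision.

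Gene names came from the platform annotation (909 probe sets, 802 symbols), and 885 of these probe sets matched RefSeq. The rule for naming took the 15 largest named rises and falls, up to 6 called and 4 bright uncalled members of each list, all nitrogen genes, and the 2 largest unnamed rises and falls, each gene by its brightest probe set. Uncalled members are printed for some of the lists only, and not always all 4. AGP-S2, sus3, WRKYIId, RAB1B, TCTR2 and the added light genes fall outside this rule and were named after their values were seen. The members and lists were chosen with earlier results of these data known. Alternatives were quantile normalization, poly-A scaling, no filter, only the groups compared, array weights, a replicate block and leaving out arrays. Whether p-values cover more than technical spread depends on the samples being separate plants, which the labels do not spell out. Batches and detection calls were not analysed here.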

Additional observations from a re-analysis of the deposited data

Results flagged for a closer look

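In groups of 5 arrays, 8 values stood far from the other 4 by Dixon's criterion, of 140 groups tested, where chance gives about 1 in 20. Water replicate 4 was low for MAPK10 (9.95, others 10.16 to 10.18) and gts1 (9.10, others 9.62 to 9.75) and high for vsf-1 (7.87, others 7.33 to 7.47). High N replicate 1 was high for CYP1 (11.06, others 10.58 to 10.67) and low for bZIP1 (9.86, others 10.40 to 10.60). High N replicate 5 was low for GAL83 (8.25, others 8.96 to 9.22). The GAPDH 3′ minus 5′ signal of water replicate 3 was 0.406 against 0.124 to 0.186 in the others. In high N replicate 3, 2.271% of probe sets sat at the lowest value of the array, against 2.59% to 2.66% in the others.

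The high N response of the unnamed probe set Les.4317.1.S1_at differed between the genotypes by −2.63 (wild type minus rmc, limma interaction, adjusted p = 0.00918).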

How the results depend on the processing

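Of the 1374 calls for high N against water, poly-A scaling left 9 (8 rises, 1 fall), array weights gave 2757 (1235 rises, 1522 falls), and leaving out water replicate 3 and high N replicate 5 together, an alternative chosen after seeing the data, gave 72 (54 rises, 18 falls); the cause was not tested. Leaving out 1 array gave 467 to 1681 calls (274 to 691 rises, 193 to 990 falls). Quantile normalization gave 1387, no filter 1201 and only the groups compared 2019. The labels do not say that replicate numbers pair samples, so the numbers were not taken to do so in the main fit. The deviations of same-numbered arrays had correlations from −0.307 to 0.381. As a hint of pairing from the data, 4 of 5 water arrays correlated best with their own number. The replicate block gave 1757 calls. With poly-A scaling, which moves every difference up by the same amount, CDKC stood at 0.08 and Rab1C at 0.02, on the other side of 0. Of 65 named gene results, 58 no longer passed with poly-A scaling, 54 without both arrays, 11 without the filter, 3 with only the groups compared, 1 with quantile normalization, 0 with the block and 2 to 35 without 1 array. High N against low N stayed at 0 calls and the genotype difference at 1 in every alternative run. Without 1 array the control differences ran from −0.401 to −0.278 for poly-A spikes, −0.345 to −0.274 for GAPDH and −0.109 to −0.061 for actin (exact permutation, adjusted p from 0.0397 to 0.0794). Near background, 23 negative control probe sets reached 3.365, and no named gene lay at that bound.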

Other observations

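Genes of light perception and its COP1 branch were put together as a list after their values were seen, so the list itself has no test. In plants, phytochromes and cryptochromes sense light, and COP1 marks light-signalling proteins for breakdown in the dark. Of 16 tested probe sets for 13 genes, 15 were below 0 (median −0.43), 6 were called down (37.5%, against 9.59% of all tested probe sets) and 0 up. The called genes were CIP1 (−0.69 and −0.85), CRY1A (−0.66), COP1 (−0.60), the phytochrome gene PHYA (−0.60) and CIP4 (−0.30, but 0.03 with poly-A scaling). CRY2 (−0.50, limma adjusted p = 0.0541), CIP2b (−0.39, adjusted p = 0.0584) and CUL4 (−0.30, adjusted p = 0.0591) did not pass. CRY1A was the 1 probe set called in all 10 fits without 1 array, and 0 of the 16 were called without water replicate 3 and high N replicate 5.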
